A study of Mus musculus with 2 samples.

Results

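The genes described here are the transcription factors and repressors of the mammalian circadian clock and the clock-driven PAR bZIP factors, measured in the dorsolateral prostate of mice that carry a miR-32 transgene. Members were all non-control probes whose RefSeq accession maps to Tef, Dbp, Hlf, Nr1d1, Nr1d2, Per1, Per2, Per3, Arntl or Bhlhe41, which gave 16 probes of 10 genes among 41174 probes and 18952 named genes on the array. Hlf, Nr1d1 and Per1 lie on chromosome 11, Dbp and Arntl on 7, Tef on 15, Nr1d2 on 14, Per2 on 1, Per3 on 4 and Bhlhe41 on 6. Of these 10 genes, 7 were detected, against 10434 detected genes in all. A gene was detected when a probe was well above background, by the scanner software's flag, in at least 1 RNA pool on both arrays.

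One RNA pool came from 6 FVB/N mice that were ARR2PB-miR32 transgenic, and the other from 6 wild-type FVB/N mice, all 6 months old. ARR2PB is a composite, androgen-responsive probasin promoter of prostate epithelial cells, so the transgene is driven in one cell type of a tissue that was measured whole. Both pools were hybridised together on 2 arrays. Cy3 labelled the transgenic pool on array 1, and the dyes were exchanged on array 2, where it was labelled with Cy5. Because both arrays hold the same RNA they count as 1 replicate, so the genotypes could not be tested against each other. Every ± gives the SD of the 2 arrays. The hour of dissection is in none of the labels.

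In the core loop, BMAL1, encoded by Arntl, pairs with CLOCK or NPAS2 and activates genes that carry E-boxes, among them the Per and Cry genes, Nr1d1, Nr1d2, Bhlhe41 and the PAR bZIP genes Dbp, Tef and Hlf. PER and CRY proteins repress BMAL1 and CLOCK, while the nuclear receptors REV-ERB alpha (Nr1d1) and REV-ERB beta (Nr1d2) repress Arntl through ROR elements. The PAR bZIP proteins activate genes through D-boxes, to which the repressor NFIL3 also binds. In mouse peripheral organs the transcripts of Dbp and Nr1d1 peak in the light, resting phase. Those of the Per genes peak near its end, and Arntl peaks in the opposite phase. A sample's hour can therefore shift these groups in opposite directions.

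The mature transgene product is shown because its seed, in capitals, sets which transcripts it can pair with. It is given as RefSeq annotates the endogenous locus in GRCm38.p6, chr4:56895272-56895293 on the minus strand, with bases 2 to 8 in capitals.
mmu-miR-32-5p: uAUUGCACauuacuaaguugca

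Promoter windows, running from 250 bases before to 50 bases after an annotated transcript start in RefSeq's GRCm38.p6 table, were found for 9 of the 10 genes, and 12 windows were searched on both strands. The E-box CACGTG was present in windows of Tef, Per1 and Bhlhe41, and in 7.15% of 32851 promoter windows genome-wide. The D-box TTATGTAA occurred 2 times in the Per3 window and in 0.938% of all windows. The ROR element, searched as AA, any base, then TAGGTCA, occurred in 1 Arntl window and in 0.219% of all windows, and the cyclic AMP element TGACGTCA in the Hlf window and in 1.79% of all windows. A match is a description of these letters and not of a bound site. Both Tef windows are shown because Tef was the member with a size-rule difference, followed by Per1, Per3 and Arntl as carriers of the E-box, the D-box and the ROR element, with matches in capitals.
Tef upstream start, chr15:81802423-81802722, plus strand: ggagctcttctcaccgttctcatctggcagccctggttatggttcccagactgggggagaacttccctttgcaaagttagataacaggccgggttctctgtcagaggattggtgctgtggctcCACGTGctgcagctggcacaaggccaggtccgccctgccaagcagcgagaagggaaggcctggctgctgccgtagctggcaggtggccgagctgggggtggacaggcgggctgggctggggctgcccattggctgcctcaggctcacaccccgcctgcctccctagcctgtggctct
Tef downstream start, chr15:81811164-81811463, plus strand: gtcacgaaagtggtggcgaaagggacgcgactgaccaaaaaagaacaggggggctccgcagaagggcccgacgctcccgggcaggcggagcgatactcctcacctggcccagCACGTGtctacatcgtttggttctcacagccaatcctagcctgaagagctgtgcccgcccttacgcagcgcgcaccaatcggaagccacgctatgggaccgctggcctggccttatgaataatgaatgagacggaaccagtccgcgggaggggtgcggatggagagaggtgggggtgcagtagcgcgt
Per1 upstream start, chr11:69098699-69098998, plus strand: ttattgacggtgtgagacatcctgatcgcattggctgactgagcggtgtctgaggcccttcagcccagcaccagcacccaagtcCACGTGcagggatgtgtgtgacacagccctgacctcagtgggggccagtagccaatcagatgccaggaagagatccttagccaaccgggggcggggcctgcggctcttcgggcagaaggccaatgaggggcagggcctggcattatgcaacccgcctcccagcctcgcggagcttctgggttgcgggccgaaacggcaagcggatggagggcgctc
Per3, chr4:151044616-151044915, minus strand: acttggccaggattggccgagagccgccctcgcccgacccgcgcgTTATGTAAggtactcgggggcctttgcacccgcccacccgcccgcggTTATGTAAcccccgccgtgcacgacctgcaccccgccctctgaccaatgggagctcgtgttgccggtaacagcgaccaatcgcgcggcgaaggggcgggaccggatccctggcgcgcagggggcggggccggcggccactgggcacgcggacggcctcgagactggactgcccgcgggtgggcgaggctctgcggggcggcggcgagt
Arntl downstream start, chr7:113207261-113207560, plus strand: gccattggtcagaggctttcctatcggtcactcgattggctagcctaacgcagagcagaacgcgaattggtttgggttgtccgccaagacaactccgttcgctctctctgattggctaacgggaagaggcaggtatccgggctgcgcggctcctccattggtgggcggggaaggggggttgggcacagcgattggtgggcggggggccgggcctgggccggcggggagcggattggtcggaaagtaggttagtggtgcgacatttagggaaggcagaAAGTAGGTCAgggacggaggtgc
The E-box began 127 bases before the upstream start of Tef and 138 bases before its downstream start, and 166 bases before the upstream start of Per1. The D-boxes of Per3 began 205 and 158 bases before its start, and the ROR element of Arntl at base 28 of the transcript.

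Of the 7 detected members, Tef was lower in the transgenic pool and no member was higher, where a call needed 1.5-fold or more on both arrays with the sign unchanged. This size rule called 2.21% of all 10434 detected genes, 1.30% as lower and 0.910% as higher. Mean log2 ratios of the other 6 members lay between −0.31 and 0.03. Among genes detected in both pools the rule called 2.77%, 1.24% as lower, and neither of the 2 members in that class, Dbp and Per1. The median of the 7 members was −0.15, with −0.17 on array 1 and −0.26 on array 2, and the median of all detected genes was −0.06, with −0.03 and −0.08. The means of 6 of the 7 members were below 0, as were those of most detected genes, of which 40.6% were above 0.

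**Figure D1:**
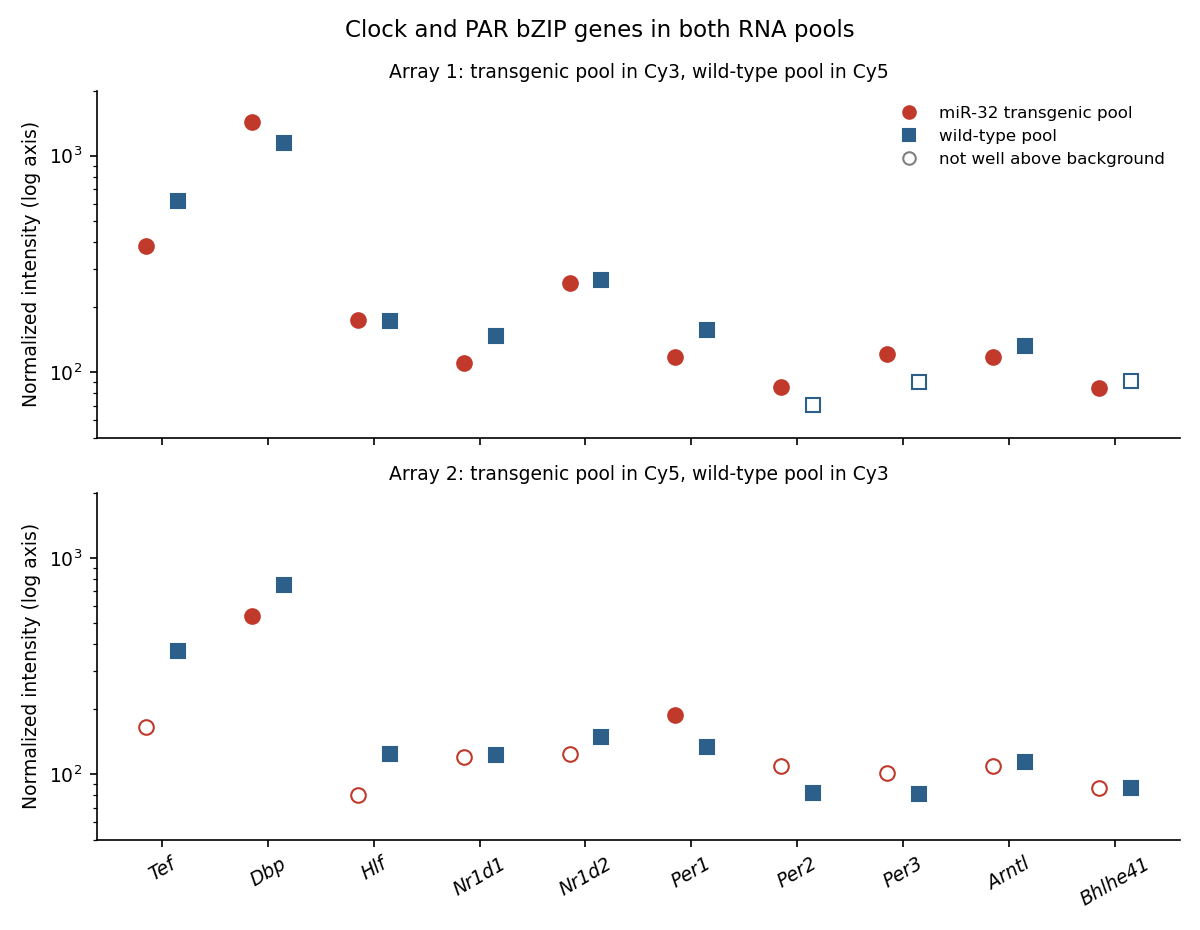
Normalized intensity, on a log axis, of the 10 clock and PAR bZIP genes in the transgenic pool (red circles) and the wild-type pool (blue squares) on array 1 (top) and array 2 (bottom), open symbols marking signals not well above background. Tef is lower in the transgenic pool on array 1, and on array 2 the transgenic signal is well above background for Dbp and Per1 only.

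Tef encodes thyrotroph embryonic factor, a PAR bZIP activator of D-box genes. Its brightest probe had normalized intensities of 384 in the transgenic pool against 621 in the wild-type pool on array 1, and of 165 against 371 on array 2. These intensities are background-corrected with a constant of 50 added and dye-normalized, and they are comparable between pools within an array only. On array 1, where both pools were well above background, Tef was lower in the transgenic pool at a log2 ratio of −0.69. The transgenic signal on array 2 was not well above background, with a net spot signal of 24 in Cy5 beside 598 for the wild-type pool in Cy3, so the transgenic level was measured on 1 of 2 arrays and Tef passed the detection filter through the wild-type pool. The log2 ratio computed on array 2 was −1.17, a value that depends on the added constant and was −1.48 with a constant of 16. The mean over arrays of −0.93 ± 0.34 carries the same limit, as does the call. Among the 4362 genes with this pattern of detection, which include 5 of the 7 members, the median log2 ratio was −0.03 on array 1 and −0.17 on array 2, and 1.33% were called, 1.31% as lower and 0.0229% as higher. The other Tef probes were not detected and stood at 0.25 ± 0.01 and 0.03 ± 0.70, without the decrease of the brightest probe. By the scanner software's ratios Tef was at −0.54 on array 1 and −1.70 on array 2, and its call ended.

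Dbp, the D-box binding protein and a strongly rhythmic output of the clock, was well above background in every channel. It had 1429 in the transgenic pool against 1147 in the wild-type pool on array 1, and 541 against 752 on array 2. The order of the pools was reversed between the arrays, with log2 ratios of 0.32 and −0.48 and a mean of −0.08 ± 0.56. On each array the pool labelled with Cy3 was the brighter one. The authors' deposited table gives 0.31 and −0.53 for the same probe.

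Hlf, hepatic leukemia factor and the remaining PAR bZIP member, had 174 in the transgenic pool against 173 in the wild-type pool on array 1 and 80.3 against 124 on array 2. The pools were level on array 1, and on array 2 the transgenic signal was not well above background, with log2 ratios of 0.01 and −0.63 (−0.31 ± 0.45). The PAR bZIP genes therefore shared no difference past the size rule, with means of −0.93, −0.08 and −0.31.

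Neither REV-ERB gene passed the size rule. Nr1d1 had 111 in the transgenic pool against 147 in the wild-type pool on array 1 and 120 against 123 on array 2. It was lower in the transgenic pool on array 1 and level on array 2, at −0.41 and −0.03 (−0.22 ± 0.27). Its other probes, not detected, were at 0.21 ± 0.05 and 0.17 ± 0.05, opposite in sign to the brightest probe. Nr1d2 had 260 in the transgenic pool against 266 in the wild-type pool on array 1 and 124 against 149 on array 2, which gave −0.04 and −0.26 (−0.15 ± 0.16). Both genes stayed short of 1.5-fold on each array in these values, whereas the scanner software's values for Nr1d1 were −0.45 and −1.07, the second past 1.5-fold.

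Among the Period genes, which encode the negative limb of the loop, Per1 alone was detected, and it was well above background in every channel. Per1 had 117 in the transgenic pool against 158 in the wild-type pool on array 1, and 187 against 134 on array 2. Its log2 ratios of −0.42 and 0.48 were nearly equal and opposite, with a mean of 0.03 ± 0.64, and the pool labelled with Cy5 was the brighter one on each array. The scanner software's log ratios of −0.92 and 2.47, and −0.93 and 2.45 in the authors' deposited table, have the same opposed signs.

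Per2, Per3 and Bhlhe41, the last encoding the E-box repressor DEC2, were not detected. Their probes were well above background at most in the pool that carried Cy3 on each array. The brightest probe of Per2 had net spot signals of 23 in the transgenic pool against 12 in the wild-type pool on array 1 and of 24 against 29 on array 2. Per3 had 56.5 against 32 on array 1 and 20 against 24.5 on array 2. Bhlhe41 had 23.5 against 34.5 on array 1 and 10 against 27 on array 2. After normalization these probes stood at 0.26 and 0.42 for Per2, 0.43 and 0.32 for Per3, and −0.11 and −0.00052 for Bhlhe41, all short of 1.5-fold on each array. The second probe of Per2 was at 0.10 and −0.12, and that of Bhlhe41 at 0.22 and −0.19. At such signals a difference between the pools was not detectable by the rule used here.

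Arntl, the positive limb, had 118 in the transgenic pool against 132 in the wild-type pool on array 1 and 109 against 114 on array 2. The transgenic pool was slightly lower on each array, at −0.17 and −0.07 (−0.12 ± 0.07), and its signal on array 2 was not well above background. With the scanner software's log ratios Arntl was at −0.39 and −1.15, of which only the second passed 1.5-fold.

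**Figure D2:**
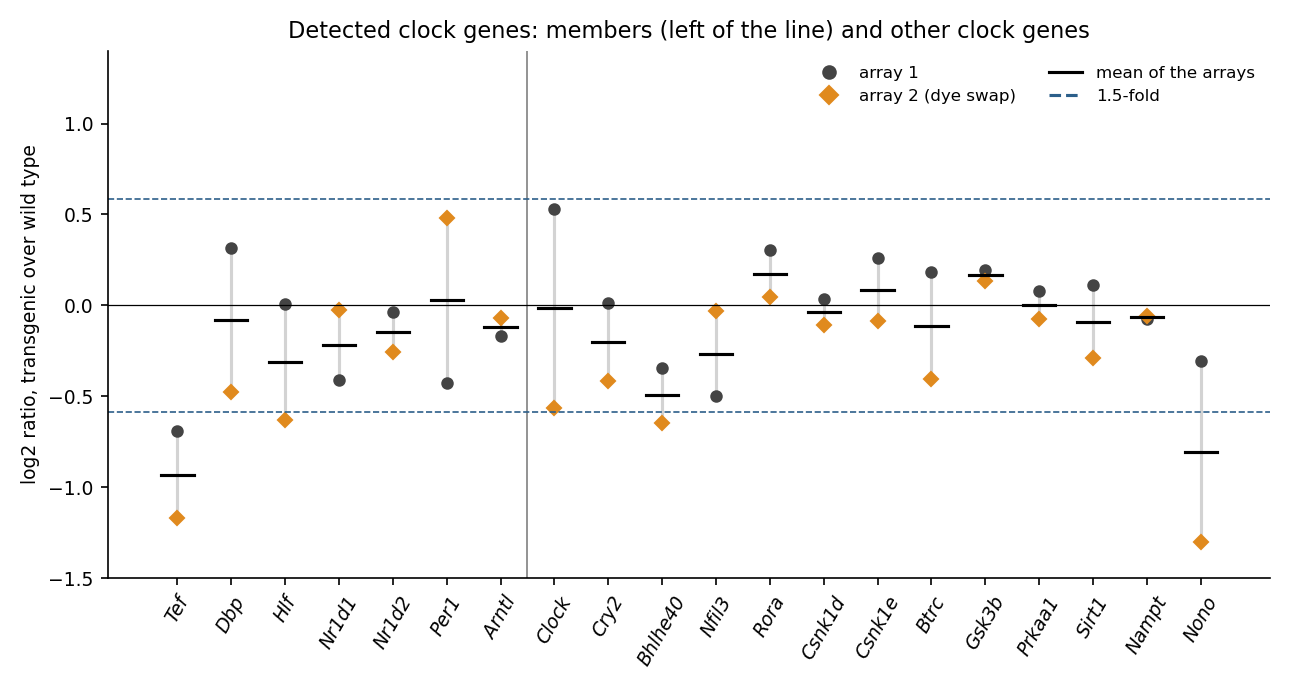
Log2 ratio of transgenic over wild type for the 7 detected members (left of the vertical line) and 13 other detected clock genes, with array 1 as grey circles, array 2 as orange diamonds, the mean as a bar and 1.5-fold as dashed lines. Tef alone lies beyond the lower dashed line on both arrays, and many genes, such as Dbp, Per1 and Clock, lie on opposite sides of 0 on the 2 arrays.

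Genes of opposite phase were compared next, since a difference in the hour of dissection could shift them against each other. The opposite group was Arntl, Clock, Npas2, Cry1 and Nfil3. The resting-phase group was Dbp, Tef, Hlf, the REV-ERB genes, the Per genes, Bhlhe41 and Ciart. That group mixes peaks in the resting phase and near its end, so its median need not follow the hour. The detected genes of the resting-phase group, 6 of 10, had a median of −0.18, with −0.22 on array 1 and −0.37 on array 2. The detected genes of the opposite group, 3 of 5, had a median of −0.12, with −0.17 and −0.07. The transgenic signal was well above background on both arrays for 2 of the 6 resting-phase genes and 1 of the 3 opposite-phase genes. Both medians were below 0 on each array, and their difference, resting-phase minus opposite, was −0.05 on array 1 and −0.30 on array 2 (−0.18 ± 0.17). The order of the 2 medians turned round with the scanner software's values, at −0.10 for the resting-phase group and −0.52 for the opposite group. It turned likewise without background subtraction (−0.13 and −0.21), with detection required in both pools (−0.026 and −0.26) and in the authors' deposited table (0.33 and −0.28). The last 2 rest on Dbp and Per1 against Nfil3. The order was kept with an offset of 16 (−0.27 and −0.18), with median centring (−0.49 and −0.35) and without a detection filter (−0.066 and −0.040). It was also kept with Aquantile scaling and with the mean over probes.

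Single pairs of opposite phase varied in direction between pairs and arrays. Arntl minus Dbp was −0.48 on array 1 and 0.41 on array 2. Nfil3, the D-box repressor, was well above background in every channel and stood at −0.50 and −0.03 (−0.26 ± 0.33). Nfil3 minus Dbp was −0.81 and 0.44, the signs again opposed between the arrays. Nfil3 minus Tef, in contrast, was above 0 on each array, at 0.19 and 1.14, and Arntl minus Nr1d1 was 0.24 and −0.04. The transgenic signals of Tef, Arntl and Nr1d1 on array 2 were not well above background. The array 2 values of the pairs that hold these genes therefore depend on the added constant. Whether the pools were collected at different hours was not tested, and with 1 pool per genotype an effect of hour and an effect of genotype cannot be told apart.

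The wider clock machinery held no gene past the rule. Of 22 other clock genes, 15 were detected, 0 were higher and 0 were lower, with a median of −0.06 that equals the median of all detected genes to 2 decimals. Clock, the partner of BMAL1, had 291 in the transgenic pool against 201 in the wild-type pool on array 1 and 109 against 161 on array 2, and thus log2 ratios of 0.53 and −0.56. It was brighter in Cy3 on each array, as were 8 of the 15 genes, while none of them was brighter in Cy5 on each array. Among all 10434 detected genes, 3092 were brighter in Cy3 on each array and 2600 in Cy5. On array 2 the transgenic signal of 9 of the 15 genes, Clock among them, was not well above background. The casein kinase genes Csnk1d and Csnk1e, whose products phosphorylate PER proteins, were at −0.04 ± 0.10 and 0.09 ± 0.24. The detected probes of Csnk1d disagreed, the lowest at −0.45 ± 0.03 and the highest at 0.35 ± 0.29. Btrc, Gsk3b, Prkaa1, Sirt1 and Nampt, whose products act on the stability or activity of clock proteins, lay between −0.11 and 0.17 by their brightest probes. Further detected probes of Nampt (0.55 ± 0.35) and Prkaa1 (−0.14 ± 0.25) stood outside this range. This Nampt probe was past 1.5-fold on array 1, at 0.80, and at 0.30 on array 2. The transgenic signals of both probes on array 2 were not well above background.

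Rora, a nuclear receptor that activates Arntl through ROR elements, was at 0.18 ± 0.18. Its second detected probe stood at 0.73 and 0.01 (0.37 ± 0.51). Neither probe had a transgenic signal well above background on array 2. By brightest detected probes, Nono and Bhlhe40 had the largest mean differences of the list. Nono, a PER-interacting RNA-binding protein, was at −0.31 and −1.30 (−0.80 ± 0.70). Bhlhe40, the DEC1 repressor, was at −0.35 and −0.64 (−0.49 ± 0.21). Both genes were lower in the transgenic pool on each array, but neither passed 1.5-fold on array 1. The transgenic signal of Bhlhe40 on array 2 was not well above background, with a net spot signal of −6 against 49. Npas2, Cry1, Ciart, Arntl2, Rorb, Fbxl21 and Timeless were not detected, so Cry2, at −0.20 ± 0.30, was the one cryptochrome with a value.

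**Figure D3:**
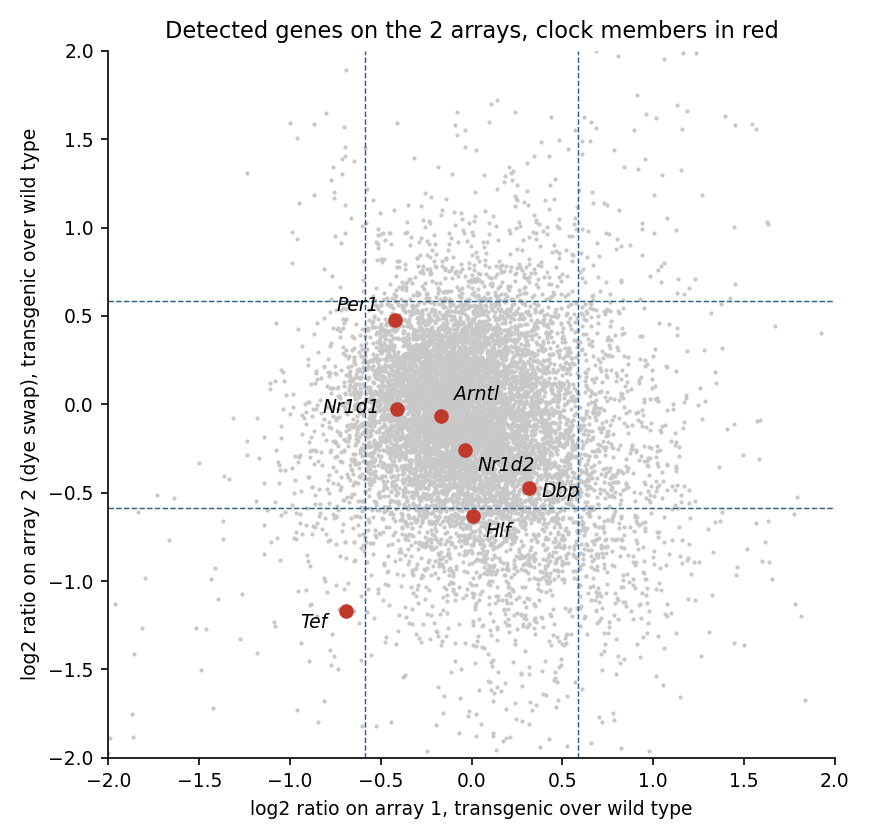
Log2 ratio of transgenic over wild type on array 1 (horizontal) against array 2 (vertical) for all detected genes in grey and the 7 detected members in red, with 1.5-fold as dashed lines and 108 genes outside the axes. Tef lies in the lower left corner beyond the dashed lines on both axes, and the other 6 members lie within the mass of genes.

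The members' agreement between arrays was close to that of the array as a whole. Signs differed between the arrays for 3 of the 7 members (Dbp, Hlf and Per1) and for 54.6% of all detected genes, and the median SD over arrays was 0.34 for the members and 0.28 for all. Probes printed 10 times with mean intensities in the members' range had a median SD within an array of 0.23 on array 1 and 0.32 on array 2. The mean differences over both arrays of Dbp, Nr1d1, Nr1d2, Per1 and Arntl were smaller than either of these values, which describe single spots of 1 array. For Dbp (0.32 and −0.48) and Per1 (−0.42 and 0.48) the signs were opposed, so the means are small. On each array the difference of these 2 genes was larger in size than that array's SD. The dye-following count, made with array 2 left unturned, was 318 genes at 1.5-fold, or 3.05%, with 2.70% brighter in Cy3, and 0 of them were members.

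Genes downstream of the clock and of glucocorticoids, hormones that set Per1 and other clock genes in peripheral organs, were examined in the same way. Of 20 such genes, 15 were detected, 1 was higher and 0 were lower, with a median of −0.12. The higher gene was Mt1, a metallothionein, with 105315 in the transgenic pool against 62090 in the wild-type pool on array 1 and 60313 against 39186 on array 2. Its log2 ratios were 0.76 and 0.62 (0.69 ± 0.10), and those of its relative Mt2 were 0.30 and 1.36 (0.83 ± 0.75). The call of Mt1 ended on array 2 with the values of the scanner software (0.25) and in the authors' deposited table (0.22), without background subtraction (0.55 on array 1), with an offset of 16 (0.36 on array 2) and when the log ratios were scaled to equal spread between arrays (0.58 on array 2). The call was kept under Aquantile scaling, which leaves the ratios as they are. With median centring Mt1 was at −1.59 on array 2.

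The glucocorticoid-induced Tsc22d3 (GILZ) had 331 in the transgenic pool against 462 in the wild-type pool on array 1 and 142 against 264 on array 2. It was lower on each array, at −0.48 and −0.90 (−0.69 ± 0.30), and past 1.5-fold on array 2 alone, where the transgenic signal was not well above background. By the scanner software Tsc22d3 was called lower, at −0.87 and −1.07, while its second detected probe stood at −0.59 and 0.20 in the normalized values. Sgk1, a glucocorticoid-induced kinase, was also lower on each array, at −0.65 and −0.31, and past 1.5-fold on array 1 alone. The 3 detected probes of Fkbp5, induced by the same hormones, disagreed: the brightest read 0.66 and −0.39, another −1.37 and −0.05, and the last −0.47 and 0.08. The clock outputs Usp2 and Tspan4, a deubiquitinase and a tetraspanin, were at 0.04 ± 0.25 (second probe −0.20 ± 0.20) and −0.12 ± 0.02.

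Per1 and Per2 also respond acutely to cellular stimuli and to temperature, so 12 inducible genes were set beside them. Of these, 10 were detected, 2 were lower and 0 were higher, with a median of −0.31 that was −0.64 on array 1 and 0.04 on array 2. The lower genes were the heat shock genes Hspa1a and Dnajb1. Hspa1a was at −2.24 and −1.18, and its second detected probe at −1.13 and −1.33. The transgenic signal of that second probe on array 2 was not well above background, with a net spot signal of 10.5 against 525.5. Dnajb1 was at −0.64 on array 1 and was computed at −2.62 on array 2, where its transgenic signal was not well above background. Its second detected probe, at −0.56 and −0.66 with the same limit on array 2, did not pass 1.5-fold on array 1. The 2 detected probes of Junb disagreed on array 2, the brighter at −0.08 and 1.65 and the other at −0.09 and 0.05. Fos and Fosb were not detected.

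**Figure D4:**
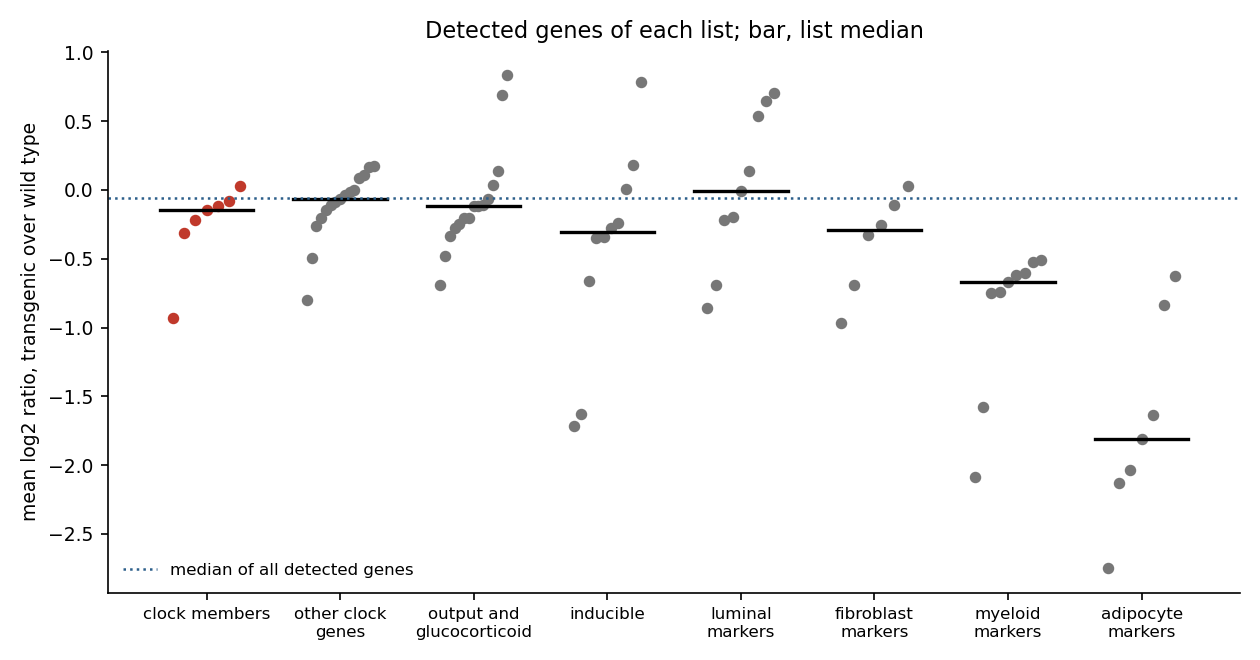
Mean log2 ratio of transgenic over wild type of each detected gene (points) and list median (bar) for the clock members in red and other lists in grey, with the median of all detected genes dotted. The clock lists centre near the dotted line, at −0.15 and −0.06, whereas myeloid and adipocyte markers centre at −0.67 and −1.81. Most of these markers had a transgenic signal well above background on 1 array only.

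Markers of other cell types also differed between the pools, and in bulk samples fewer cells of a type cannot be told apart from less RNA per cell. Of 8 adipocyte markers 7 were detected (Lep was not), 6 were lower and 0 higher, and their summed normalized intensity was 2954 in the transgenic pool against 9855 in the wild-type pool on array 1 and 1329 against 6723 on array 2. Of 10 myeloid markers 9 were measured and detected (Cd68 had no named probe), 4 were lower and 0 higher, with sums of 1884 against 4253 on array 1 and 1488 against 3924 on array 2. The transgenic signal was well above background on both arrays for 2 of the 7 adipocyte and 3 of the 9 myeloid markers. The others passed the filter through the wild-type pool, with a transgenic signal well above background on 1 array only. Of 9 luminal markers, all detected, 2 were lower and 0 higher, with a median of −0.01, and 8 had a transgenic signal well above background on both arrays. Their sums were 389282 in the transgenic pool against 455933 on array 1 and 415141 against 232669 on array 2. None of 4 basal, 5 smooth muscle and 6 fibroblast markers passed the rule. Median log2 ratios on arrays 1 and 2 had opposite signs for luminal (0.01 and −0.20), basal (0.02 and −0.21), smooth muscle (0.49 and −0.55) and fibroblast markers (0.12 and −1.17). Of 5 seminal vesicle products, Svs2, Svs3a, Svs4 and Svs5 were not detected. The remaining product, Ceacam10, was detected through the wild-type pool, and it was lower at −1.36 ± 0.14. Its transgenic signal was well above background on 1 array only. The clock runs in all these cell types, and the part of cell make-up in the difference of Tef was not tested.

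**Figure D5:**
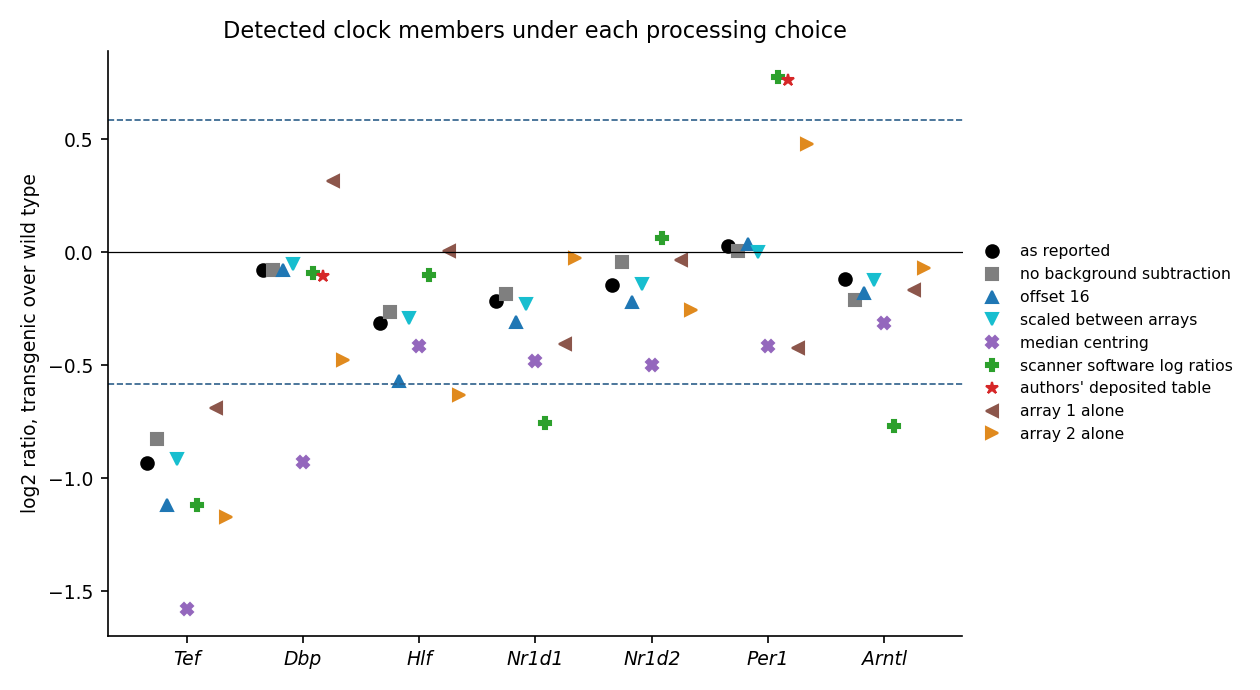
Log2 ratio of transgenic over wild type of the 7 detected members under 9 ways of processing, with 1.5-fold as dashed lines. Tef stays below 0 in every setting in which it has a value, its transgenic signal on array 2 being not well above background, from −1.58 to −0.69, while Per1 spans −0.42 to 0.77 and Dbp −0.93 to 0.32.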

How the data were processed

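Per the labels, Trizol RNA of dorsolateral prostate (100 ng) was labelled in 2 colours with an Agilent low-input kit. The deposited median spot and local background signals are intensities in each dye, made with Feature Extraction 11.0.1.1 and neither background-subtracted nor dye-normalized, per the file headers. The scanner software's processed intensities and its log10 ratio of Cy5 over Cy3, per the file headers, served as an alternative. The authors' deposited table of 8533 values is in log2 units. Its columns matched the scanner software's ratios turned to transgenic over wild type with r and slope of 1, and a median of 0 on each array. How its rows were selected is unstated.

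In limma 3.58.1 (R 4.3.3), the median signals were treated by normexp (offset 50) and then by loess within each array, in which control and outlier spots had weight 0. Mean signals, which had been planned, are not among the columns used. The software's outlier flag removed 157 spots of array 1 and 177 of array 2, and repeated spots were averaged. Array 2 was turned as the dye swap. Accessions were matched without versions to RefSeq GRCm38.p6, which named 27816 of 41174 probes. A gene took its detected probe of highest mean intensity.

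On array 1, 58.3% of spots were well above background in Cy3 and 42.1% in Cy5. On array 2 the shares were 57.0% in Cy3 and 21.1% in Cy5. No spot was saturated. Of 10434 detected genes, 10424 passed through wild-type signals on both arrays and 6056 through transgenic signals on both arrays. Both pools were well above background on both arrays for 6046 genes. Another 4362 genes passed through the wild-type pool, with a transgenic signal well above background on array 1 only. The number of arrays limits the precision. No p-values were computed. The genes past the rule were split 95 higher to 136 lower, 248 to 625 with the scanner software's log ratios, 178 to 119 in the authors' deposited table, 94 to 76 among genes detected in both pools and 2 to 554 with median centring. Median centring put the median of all detected genes at −0.57.

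The members, lists and tests were chosen with earlier results of these data known. All members were named with every probe, genes of the other clock list could be named (2 of its detected genes are counted but not reported here), and genes of the remaining lists where past the rule or among those with the largest absolute mean. The other genes of those lists given above, and the marker Ceacam10, were picked with their values in view. Figures and tables were made with Python 3.11.15, pandas 2.3.3, numpy 2.4.6 and matplotlib 3.10.9.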

Additional observations from a re-analysis of the deposited data

How the results depend on the processing

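Tef was the member past the size rule in the setting used. The count of members past it was 0 by the scanner software, 0 in the authors' deposited table and 0 with detection in both pools (neither of the last 2 holds a value for Tef), 0 at 2-fold, and 1 to 2 with either array alone, Hlf being the second on array 2 (−0.63). It was 1 without background subtraction, with an offset of 16, with median centring and with scaling to equal spread. It was also 1 with Aquantile scaling, without a detection filter and with the mean over probes, settings that could not change Tef. Aquantile scaling leaves ratios as they are, and Tef had 1 detected probe, which is also its brightest. The mean was taken over detected probes only, so the other Tef probes did not enter it. Tef ranged from −1.58 to −0.69 over the alternatives that gave it a value. For the other clock genes the count was 0 to 2 on single arrays, the 2 being Bhlhe40 and Nono on array 2. The transgenic signal of Bhlhe40 was not well above background there. For the output and glucocorticoid genes it was 0 without background subtraction, with an offset of 16, in the deposited table, at 2-fold and with log ratios scaled to equal spread between arrays, an alternative chosen after seeing the data. It was 1 under Aquantile scaling (Mt1), 1 by the scanner software (Tsc22d3, lower, in place of Mt1), 2 with median centring (Sgk1 and Klf15, both lower) and 4 on either array alone. Mt1 was reversed with median centring, at −0.48. Over all detected genes the count of 231 became 388 with an offset of 16, 556 with median centring, 873 by the scanner software, 62 at 2-fold and 1403 to 2114 on single arrays.

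The median of the resting-phase genes, −0.18, was −0.49 with median centring, 0.33 in the deposited table (Dbp and Per1), −0.026 with detection in both pools, −0.066 without a filter and −0.37 to −0.22 on single arrays. That of the opposite phase, −0.12, was −0.21 without background subtraction, −0.35 with median centring, −0.52 by the scanner software, −0.28 in the deposited table, −0.26 with detection in both pools (Nfil3 alone in both), −0.040 without a filter and −0.17 to −0.07 on single arrays. The medians changed with detection settings because fewer or more genes entered them, and the cause of the other changes was not tested. Signal over background limits these values, since the transgenic signal of 5 of the 7 detected members on array 2 was not well above background.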
